A study of Mus musculus with 6 samples.

Results

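The genes described here encode the potassium, calcium and voltage-gated sodium channels. They were taken as the rows of the deposited expression table whose symbol begins with Kcn or Cacn, or is Scn followed by a number and a or b, which gave 131 of 18211 genes: 91 potassium, 26 calcium and 14 sodium channel genes. The rule used names only and no measured value. RNA was sequenced from oligodendrocyte precursor cells (OPCs), the progenitors of the myelinating cells of the brain, after immunopanning on Pdgfrα from the brains of P7 C57BL/6 mice.

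The comparison held 3 libraries from wildtype mice and 3 from NG2-CreERTM:DISC1 exon3 fl/+ mice (DISC1-Δ3). Both groups were given tamoxifen by gavage on 4 consecutive days, P4 to P7, so that cells were taken on the last day of treatment. In DISC1-Δ3 mice the NG2 promoter, which is active in OPCs and also in pericytes, drives an inducible Cre that removes exon 3 from 1 of the DISC1 alleles. The wildtype mice carried no CreERT, and the sources used here do not say whether they carried the floxed allele. The presence of CreERT and the recombination differed together between the groups and cannot be told apart. The sources do not give the number of animals behind each library, and p-values therefore measure the spread between these libraries, which may be technical.

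Voltage-gated potassium, calcium and sodium channels are built around a pore-forming alpha subunit, which opens on depolarisation, and accessory subunits that set its surface level and gating. Inward rectifiers and tandem pore domain (K2P) channels conduct potassium near rest and set the resting potential of glia. OPCs are the glial cells best known for voltage-gated channels: they carry sodium, calcium and delayed-rectifier potassium currents and receive synapses from neurons, and as they mature the voltage-gated currents decline while the inward rectifier Kcnj10 takes over.

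Levels are given as RPKM, the authors' read count divided by transcript length and library total, and changes as log2 fold changes, DISC1-Δ3 over wildtype, with their standard error (SE), fitted by edgeR's quasi-likelihood test to the read counts. Testing needed an RPKM of 0.5 or more in 3 or more of the 6 libraries, which 13792 genes met, and a gene was called when its Benjamini-Hochberg adjusted p-value over those genes was under 0.05. Libraries held 13716619 to 16417219 reads, and the median tested gene had 328 to 426 reads. Of the 131 channel genes 86 were tested and 45 were too low.

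The libraries held RNA of other cell types besides OPCs. Pdgfra stood at 17.5 ± 0.503 RPKM in wildtype and 25.9 ± 0.915 in DISC1-Δ3 libraries (SD, n = 3 each) and rose (log2 fold change 0.48), whereas C1qa, a microglial complement gene, stood at 3312 and 2192 RPKM. The summed RPKM of 15 OPC markers was 600 to 624 in wildtype and 784 to 811 in DISC1-Δ3 libraries, that of 15 neuron markers 403 to 408 and 492 to 507, and that of 12 pericyte and smooth muscle markers 201 to 209 and 278 to 290. In the OPC sum Olig1 alone held a mean of 252 RPKM in wildtype and 329 in DISC1-Δ3 libraries. The sum of 16 microglia markers was 18680 to 18968 in wildtype and 13245 to 13799 in DISC1-Δ3 libraries. Of the markers tested, 10 of 15 for OPCs, 12 of 15 for neurons, 10 of 12 for pericytes and smooth muscle and 6 of 12 for endothelium rose, against 0 of 16 for microglia, 0 of 13 for maturing oligodendrocytes and 2 of 12 for astrocytes. By contrast 16 of 16 microglia, 10 of 13 oligodendrocyte and 8 of 12 astrocyte markers fell. So did 2 of 15 OPC markers, Ptprz1 and Tnr, and 1 of 12 endothelial markers, Vwf, against 0 neuron and 0 pericyte and smooth muscle markers. Over all tested genes 20.4% were called higher and 19.5% lower. In bulk RNA, fewer cells of a type and less RNA per cell cannot be told apart, and the part of these shifts in the channel changes was not tested. Disc1 itself fell by 0.45 on the log2 scale (adjusted p = 0.000528, edgeR).

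Among the channel genes there were more rises than falls. Of the 86 tested, 33 rose and 15 fell in DISC1-Δ3 libraries. That is 38.4% higher and 17.4% lower, or 55.8% in either direction, where over all tested genes 20.4% were higher, 19.5% lower and 39.9% called. The median log2 fold change was 0.20 over the channel genes and 0.0075 over all tested genes. Of 25 channel genes that were called, did not overlap between the groups and changed by at least 0.5 on the log2 scale, 21 were higher (all tested genes: 7.4%) and 4 lower (5.84%). Past a log2 fold change of 1 there were 10 higher (all genes: 2.76%) and 1 lower (1.06%). The groups did not overlap in RPKM for 55 channel genes, and for 52% of all tested genes.

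Some members could be tested only because they were high in 1 group. In 5 of the tested genes, among them Cacna1e, Kcnh1, Kcnj3 and Kcng1, every wildtype library was under 0.5 RPKM, and in 0 was every DISC1-Δ3 library. Among the 73 that reached the minimum in all 6 libraries, 28 were higher and 14 lower. The share of all genes under that same condition is not given here. Over all 13792 tested genes, which needed only 3 libraries at the minimum, 20.4% were higher and 19.5% lower. Scaling moved the split: with library totals in place of TMM factors, 41 channel genes were higher and 10 lower, 80.4% of calls higher against 68.8% with TMM. Over all tested genes that scaling called 43.2%, with 29.9% higher and 13.3% lower, which is 69.2% of calls higher against 51.1%. DESeq2 called 27 channel genes higher and 13 lower, beside 33.4% of all tested genes, 16.2% higher and 17.2% lower. Without wildtype replicate 3, the library whose removal lowered the count most, 24 were higher and 15 lower, beside 16.3% and 16.2% of all tested genes.

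**Figure D1:**
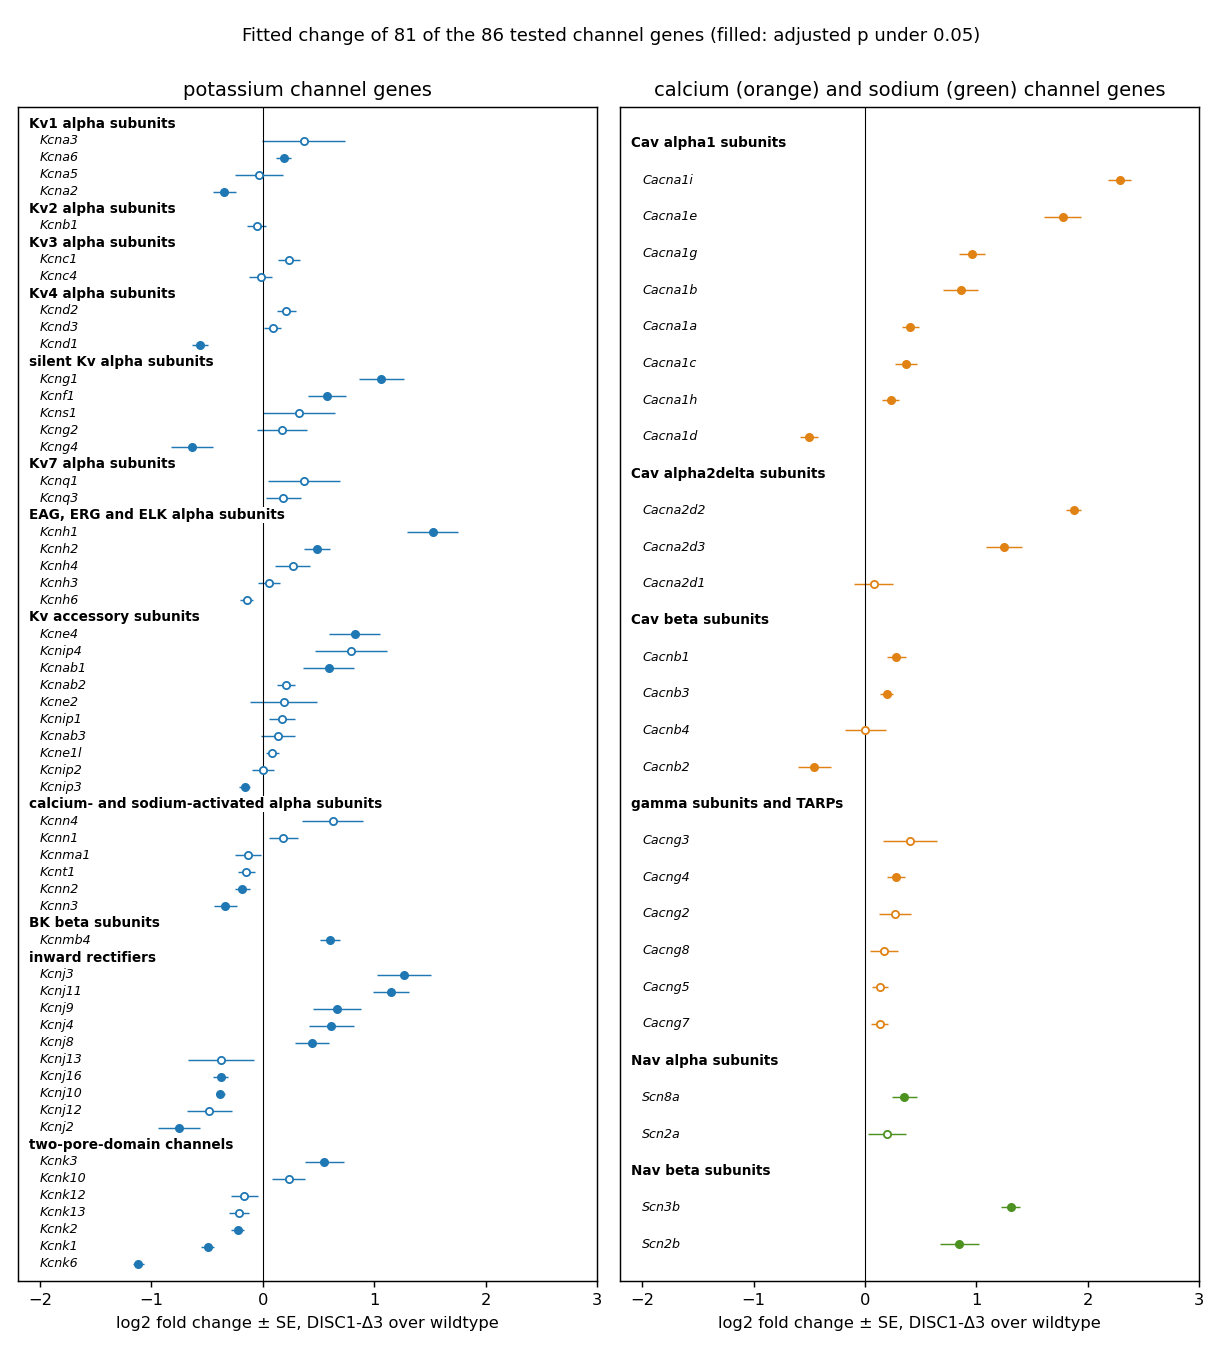
Fitted log2 fold change (x axis, DISC1-Δ3 over wildtype, bars are SE) of 81 of the 86 tested channel genes, grouped by family. Filled points passed an adjusted p of 0.05; Cacna1i lies farthest to the right at 2.29 and Kcnk6 farthest to the left at -1.12, and 7 of 8 calcium channel pore subunits lie to the right of 0.

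The start sites of rising and falling members are shown first and were searched for the short core motif bound by TCF/LEF, the factors of the Wnt/β-catenin pathway, which the study examined in these mice. RefSeq promoters (GRCm38.p6, 250 bases before to 50 after the start) were matched for 97 of the 131 genes, 133 promoters in all. Shown are Cacna1i and Cacna2d2, which had the largest rises among matched genes, Scn2b, the matched sodium channel gene with the largest rise, and Kcnj2, the matched gene with the largest fall. Lower case is sequence, and capitals mark CTTTGAT or CTTTGAA on either strand. The Cacna1i window is chr15:80286988-80287287 on the plus strand, that of Cacna2d2 chr9:107399630-107399929 (plus), that of Scn2b chr9:45117626-45117925 (plus) and that of Kcnj2 chr11:111065914-111066213 (plus).
Cacna1i: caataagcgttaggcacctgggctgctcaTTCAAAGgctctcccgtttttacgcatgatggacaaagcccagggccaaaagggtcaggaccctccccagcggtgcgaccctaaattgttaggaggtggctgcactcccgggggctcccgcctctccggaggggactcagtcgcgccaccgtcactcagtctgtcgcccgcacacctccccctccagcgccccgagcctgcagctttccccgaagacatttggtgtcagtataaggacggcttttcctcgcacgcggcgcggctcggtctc
Cacna2d2: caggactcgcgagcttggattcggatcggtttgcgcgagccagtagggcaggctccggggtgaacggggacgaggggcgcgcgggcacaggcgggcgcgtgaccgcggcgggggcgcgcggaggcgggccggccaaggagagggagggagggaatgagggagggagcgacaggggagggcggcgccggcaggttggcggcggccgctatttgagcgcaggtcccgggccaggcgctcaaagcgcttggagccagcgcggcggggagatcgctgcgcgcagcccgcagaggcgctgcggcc
Scn2b: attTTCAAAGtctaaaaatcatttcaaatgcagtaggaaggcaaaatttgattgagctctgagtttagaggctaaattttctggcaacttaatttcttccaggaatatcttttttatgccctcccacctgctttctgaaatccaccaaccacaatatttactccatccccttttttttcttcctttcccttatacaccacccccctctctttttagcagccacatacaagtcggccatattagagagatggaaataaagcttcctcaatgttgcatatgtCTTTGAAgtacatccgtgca
Kcnj2: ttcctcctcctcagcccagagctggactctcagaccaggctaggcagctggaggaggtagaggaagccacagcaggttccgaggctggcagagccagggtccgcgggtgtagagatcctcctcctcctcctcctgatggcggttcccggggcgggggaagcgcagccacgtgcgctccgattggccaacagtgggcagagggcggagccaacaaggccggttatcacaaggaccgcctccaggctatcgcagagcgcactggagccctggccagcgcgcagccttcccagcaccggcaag

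The Cacna1i window held 1 CTTTGAA and that of Scn2b 2, while these letters were in neither of the Cacna2d2 and Kcnj2 windows. Over the matched channel promoters, 8 of 133 (6.02%) held CTTTGAT or CTTTGAA, against 8.65% of 32851 RefSeq promoters of the same length. By gene, 3 of 21 matched genes that rose, 3 of 11 that fell and 1 of 31 tested but not called had at least 1 such promoter. The share by gene was 8.25% of the 97 matched channel genes and 9.88% of 27025 RefSeq genes. The windows also differed in composition: GC content was 75.7% in the Cacna2d2 window, with 43 CpG, and 38.3% in the Scn2b window, with 2 CpG. A match is a run of letters, and the binding of any factor was not measured.

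Of the 6 tested sodium channel genes 4 rose and 1 fell, where 20.4% of all tested genes were higher and 19.5% lower. Scn8a, the main sodium channel of mature nodes of Ranvier, read 1.55, 1.45 and 1.49 RPKM in wildtype and 1.88, 1.70 and 2.51 in DISC1-Δ3 libraries. The groups did not overlap, and DISC1-Δ3 replicate 3 lay well above the other two. Its log2 fold change of 0.35 ± 0.11 passed (adjusted p = 0.019, edgeR), and without that replicate it was 0.19 (adjusted p = 0.107). The Scn8a call was also lost without wildtype replicate 2 or 3 and with limma on log2(RPKM + 1) or log2(RPKM + 0.1) (adjusted p = 0.0689 and 0.0749).

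Several other pore subunits were low. Scn2a, a channel of immature axons, had 0.48 to 0.60 RPKM in wildtype and 0.56 to 0.73 in DISC1-Δ3 libraries (adjusted p = 0.374, edgeR). Scn3a, an embryonic form, was under the filter with 56, 60 and 52 reads in wildtype and 56, 84 and 119 in DISC1-Δ3 libraries, again with the highest value in DISC1-Δ3 replicate 3. Scn1a had 0.11 to 0.12 RPKM in wildtype and 0.18 to 0.21 in DISC1-Δ3 libraries and was too low to test. Scn4a and Scn7a stayed at or below 0.14 RPKM in every library, and Scn9a had at most 3 reads in each.

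The beta subunits are adhesion-type partners that adjust gating and surface level. Scn3b read 5.22, 4.34 and 4.57 RPKM in wildtype and 12.22, 11.20 and 13.39 in DISC1-Δ3 libraries, and Scn2b 1.17, 0.73 and 0.94 against 2.03, 1.62 and 1.73. Both were higher in every DISC1-Δ3 library, with log2 fold changes of 1.31 ± 0.08 (adjusted p = 7.23e-10, edgeR) and 0.85 ± 0.17 (adjusted p = 0.000722). Scn4b was under the filter at 0.16 to 0.19 RPKM in wildtype and 0.27 to 0.39 in DISC1-Δ3 libraries.

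**Figure D2:**
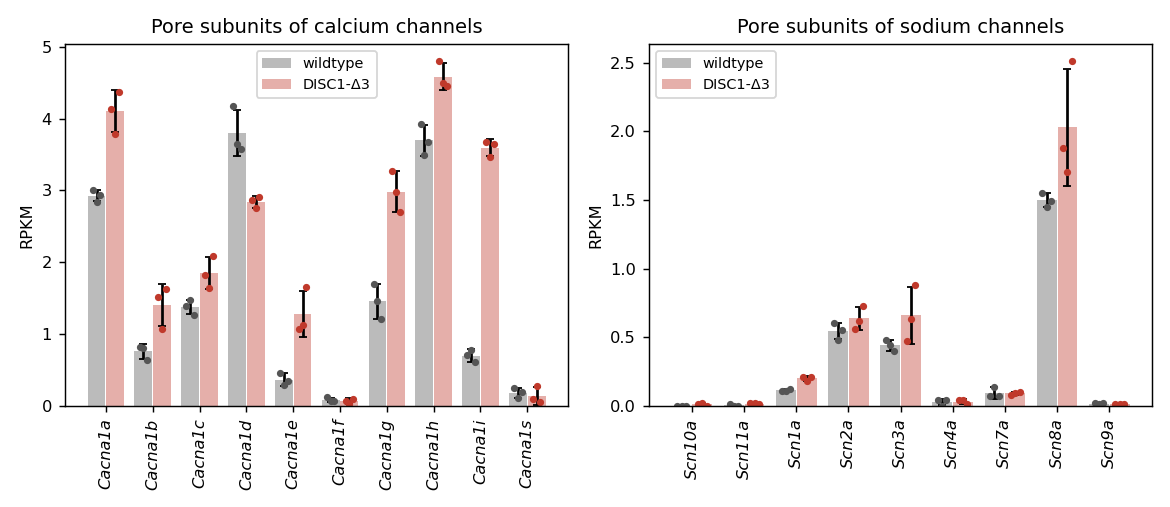
RPKM (y axis) of the pore-forming subunits of calcium channels (left) and of 9 sodium channels (right), with bars for the group mean, error bars for the SD and points for the 3 libraries of each group. Cacna1d is the tested calcium pore subunit that is lower in DISC1-Δ3 libraries, and Scn8a is higher in them with its top value, 2.51 RPKM, in replicate 3.

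Calcium channel genes were called mostly upward, with a median of 0.28 on the log2 scale. Of 21 tested genes 12 were higher (57.1%) and 2 lower (9.52%), beside 20.4% and 19.5% of all tested genes. Of the 8 tested pore (alpha1) subunits, 7 rose and 1 fell. The low-voltage-activated T-type channels, which open near rest, rose in all 3 members. Cacna1i (chromosome 15, 80287238 to 80398292, plus strand) read 0.71, 0.78 and 0.61 RPKM in wildtype and 3.68, 3.46 and 3.65 in DISC1-Δ3 libraries, and Cacna1g 1.69, 1.46 and 1.21 against 3.27, 2.98 and 2.70. For both genes the lowest DISC1-Δ3 library was above the highest wildtype one, and the log2 fold changes were 2.29 ± 0.10 and 0.96 ± 0.12 (adjusted p = 7.69e-12 and 2.97e-06, edgeR). Cacna1h, the most abundant T-type gene in wildtype at 3.49 to 3.93 RPKM, reached 4.46 to 4.80 in DISC1-Δ3 libraries, a log2 fold change of 0.23 ± 0.07 (adjusted p = 0.0194, edgeR). That last call was lost under DESeq2 and without wildtype replicate 2 or 3 or DISC1-Δ3 replicate 1 or 2. The summed RPKM of the T-type genes was 5.49 to 6.33 in wildtype and 10.8 to 11.8 in DISC1-Δ3 libraries, 1.91 times as high by group mean.

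The Cav2 genes, which encode the presynaptic P/Q-, N- and R-type channels, rose in all 3 members as well. Cacna1e (R-type) read 0.46, 0.29 and 0.34 RPKM in wildtype and 1.07, 1.12 and 1.65 in DISC1-Δ3 libraries (log2 fold change 1.78 ± 0.17, adjusted p = 1.24e-07, edgeR). Cacna1b (N-type) read 0.82, 0.81 and 0.64 against 1.51, 1.07 and 1.63 RPKM, a log2 fold change of 0.86 ± 0.16, and Cacna1a (P/Q-type) 3.00, 2.84 and 2.94 against 4.14, 3.79 and 4.37, a log2 fold change of 0.41 ± 0.08. In none of the 3 did the groups overlap. Their summed RPKM was 3.92 to 4.28 in wildtype and 5.98 to 7.65 in DISC1-Δ3 libraries, a ratio of 1.68. The summed neuron markers went from a mean of 406 to 497 RPKM, of which Tubb3 alone held 214 and 258. By gene, the 15 neuron markers had log2 fold changes from -0.25 to 1.19, with a median of 0.41. Whether neuronal RNA had a part in the Cav2 rises was not tested.

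The L-type genes, which couple depolarisation to transcription, split. Cacna1d read 4.17, 3.65 and 3.58 RPKM in wildtype and 2.86, 2.75 and 2.91 in DISC1-Δ3 libraries and fell by 0.50 on the log2 scale (adjusted p = 6.47e-05, edgeR). Cacna1c, an L-type gene known from OPCs and smooth muscle, rose from 1.27 to 1.47 RPKM in wildtype to 1.64 to 2.09 in DISC1-Δ3 libraries (log2 fold change 0.37 ± 0.10, adjusted p = 0.00513, edgeR). The Cacna1c call was lost with limma on log2(RPKM + 1) or log2(RPKM + 0.1) (adjusted p = 0.0513 and 0.0582). Cacna1f and Cacna1s, of retina and skeletal muscle, were at most 0.28 RPKM. The L-type sum of 5.11 to 5.93 RPKM in wildtype and 4.70 to 5.15 in DISC1-Δ3 libraries overlapped between the groups.

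Among the accessory subunits, alpha2delta-2 stood out. Cacna2d2 (chromosome 9, 107399733 to 107529346, plus strand), which raises the surface level of calcium channels, read 3.98, 4.39 and 4.38 RPKM in wildtype and 15.64, 17.40 and 16.31 in DISC1-Δ3 libraries. The DISC1-Δ3 values were all far above the wildtype ones, and the log2 fold change was 1.87 ± 0.07 (adjusted p = 5.61e-13, edgeR). Cacna2d3 read 0.75, 1.02 and 1.15 against 2.33, 2.42 and 2.64 RPKM (log2 fold change 1.25 ± 0.16, adjusted p = 8.97e-06), and Cacna2d1 1.13, 1.10 and 0.87 against 0.91, 1.0 and 1.81 (0.08 ± 0.18, adjusted p = 0.755). The Cacna2d1 groups overlapped, and its highest value was again DISC1-Δ3 replicate 3. Summed alpha2delta RPKM went from 6.16 to 6.91 in wildtype to 19.2 to 21.2 in DISC1-Δ3 libraries, a ratio of 3.10.

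The cytoplasmic beta subunits, which bring the pore to the membrane, changed less. Cacnb3, the most abundant, read 23.47 to 25.11 RPKM in wildtype and 28.38 to 30.23 in DISC1-Δ3 libraries (log2 fold change 0.20 ± 0.06, adjusted p = 0.0126, edgeR), a call lost without wildtype replicate 1 or DISC1-Δ3 replicate 1. Cacnb1 rose by 0.28 ± 0.09 and Cacnb2 fell by 0.45 on the log2 scale, and Cacnb4 did not pass (adjusted p = 0.993). The Cacnb1 call was lost without wildtype replicate 3 or DISC1-Δ3 replicate 2, and that of Cacnb2 under DESeq2 and without wildtype replicate 1 or 2. Of the 6 tested gamma and TARP genes, which include the AMPA receptor partners of OPCs, Cacng4 was called: it read 24.33, 23.72 and 24.42 RPKM in wildtype and 32.14, 29.81 and 30.80 in DISC1-Δ3 libraries (log2 fold change 0.28 ± 0.08, adjusted p = 0.0105, edgeR). Without DISC1-Δ3 replicate 1 its adjusted p was 0.0604. Over all tested genes 20.4% were higher and 19.5% lower. Cacng7, the most abundant calcium channel family transcript, read 49.6 to 53.2 RPKM in wildtype and 59.6 to 64.9 in DISC1-Δ3 libraries. Its fitted log2 fold change of 0.13 ± 0.07 missed the threshold (adjusted p = 0.162, edgeR). It passed with library totals (0.21, adjusted p = 0.0269, edgeR) and with limma on log2(RPKM + 1) (0.27, adjusted p = 0.000976). Cacng5 behaved likewise (0.14 ± 0.07, adjusted p = 0.142), and Cacng8 had 0.17 ± 0.13.

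**Figure D3:**
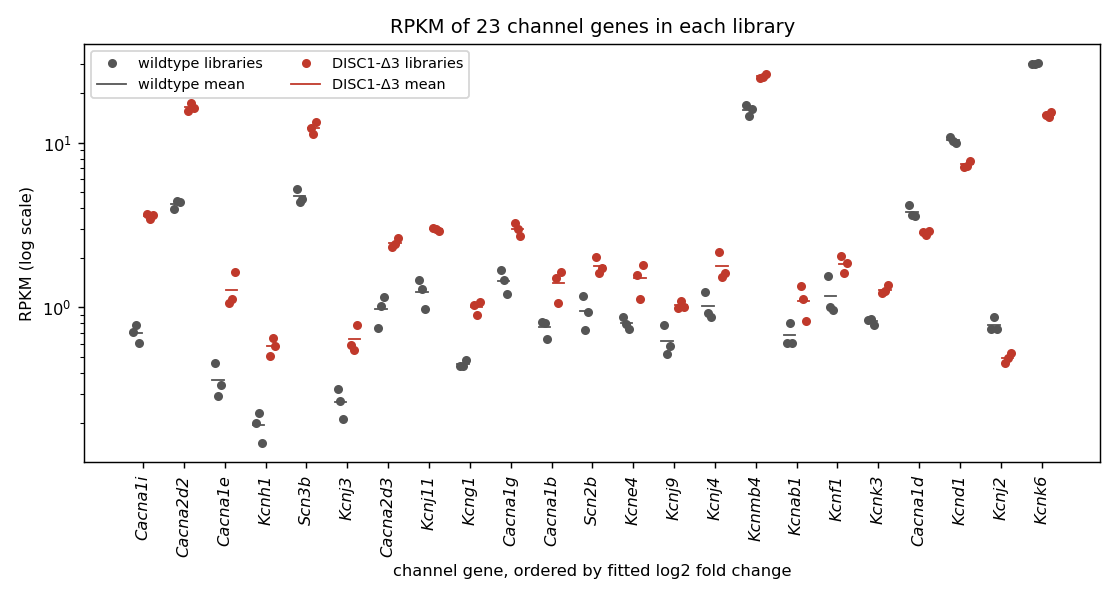
RPKM on a log axis of 23 of the 25 channel genes that were called, did not overlap between groups and changed by at least 0.5 on the log2 scale, in order of fitted change. Points are libraries and short lines are group means; 19 of the genes shown are higher and 4 lower in DISC1-Δ3 libraries.

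Potassium channel genes split more evenly, with 17 of 59 tested genes higher (28.8%) and 12 lower (20.3%), beside 20.4% and 19.5% of all tested genes. Without wildtype replicate 3 they were 11 and 12, beside 16.3% and 16.2% of all tested genes. Of 10 tested inward rectifiers 5 rose and 3 fell. Kcnj10, the glial potassium-buffering channel and the most abundant member of all, read 88.98, 84.61 and 84.54 RPKM in wildtype and 69.09, 70.17 and 70.55 in DISC1-Δ3 libraries. Every DISC1-Δ3 library was lower, by 0.38 on the log2 scale with an SE of 0.04 (adjusted p = 7.41e-07, edgeR). Its partner subunit Kcnj16 read 16.64, 17.15 and 17.20 against 12.79, 13.64 and 14.99 RPKM and fell by the same 0.38 (SE 0.06, adjusted p = 0.000146). Beside these 2 falls, 8 of 12 astrocyte markers were lower and 2 higher, with log2 fold changes from -0.59 to 0.34. Of 13 maturing oligodendrocyte markers 10 were lower and 0 higher. The part of RNA from other glia in the Kcnj10 and Kcnj16 falls was not tested. Kcnj2, a strong rectifier of microglia and vessel wall that lies next to Kcnj16 on chromosome 11, read 0.74, 0.87 and 0.74 against 0.46, 0.49 and 0.53 RPKM and fell by 0.75 (SE 0.19, adjusted p = 0.00387).

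The rises were those of Kcnj11, Kcnj3, Kcnj9, Kcnj4 and Kcnj8. Kcnj11, the pore of the ATP-sensitive channel of neurons and beta cells, read 1.47, 1.29 and 0.98 RPKM in wildtype and 3.04, 2.97 and 2.91 in DISC1-Δ3 libraries (log2 fold change 1.15 ± 0.16, adjusted p = 2.17e-05, edgeR). Kcnj3 and Kcnj9, both subunits of G-protein-gated channels, rose by 1.27 ± 0.24 and 0.67 ± 0.21, from means of 0.267 and 0.627 RPKM to 0.64 and 1.03. Kcnj4 rose by 0.61 ± 0.20, and Kcnj8, the ATP-sensitive pore of pericytes, by 0.44 ± 0.15, from 3.23 to 4.81 RPKM in wildtype to 5.33 to 7.08 in DISC1-Δ3 libraries. The calls of Kcnj4 and Kcnj9 were lost under DESeq2 (adjusted p = 0.0634 and 0.0693) and without wildtype replicate 2 or 3, that of Kcnj4 also without DISC1-Δ3 replicate 1 and that of Kcnj9 without DISC1-Δ3 replicate 2. That of Kcnj8 was lost without wildtype replicate 1 or 2 or DISC1-Δ3 replicate 2. Kcnj12 and Kcnj13, both under 1 RPKM in every library, had log2 fold changes of -0.48 ± 0.20 and -0.37 ± 0.30 (adjusted p = 0.0727 and 0.346). Summed over the family, RPKM went from 111 to 117 in wildtype to 96.7 to 99.95 in DISC1-Δ3 libraries, and without Kcnj10 and Kcnj16 from 9.06 to 11.3 to 14.4 to 16.1. Kcnj9 and Kcnj10, which moved in opposite directions, are neighbours on chromosome 1.

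The K2P channels, which carry background potassium current, held the largest fall of all members. Kcnk6 (chromosome 7, 29221928 to 29232522, minus strand) read 30.05, 30.01 and 30.37 RPKM in wildtype and 14.59, 14.29 and 15.30 in DISC1-Δ3 libraries. The values of each group lay close together and far from the other group, and the log2 fold change was -1.12 ± 0.05 (adjusted p = 9.26e-12, edgeR). Kcnk6 is described in microglia, and the 16 microglia markers, every one lower, had log2 fold changes from -0.69 to -0.23. The part of microglial RNA in the Kcnk6 fall was not tested. Kcnk1 read 33.49, 32.55 and 34.48 against 24.36, 24.91 and 26.35 RPKM and fell by 0.49 (SE 0.06), and Kcnk2, a mechanosensitive channel, fell by 0.22 (SE 0.06) from 18.53 to 19.95 RPKM to 16.98 to 18.2, a call lost with library totals. Kcnk13, the halothane-inhibited channel of microglia, had 7.61 to 8.52 and 6.60 to 7.77 RPKM (-0.22 on the log2 scale, adjusted p = 0.0687). Kcnk3, the acid-sensitive channel, rose from 0.78 to 0.85 RPKM to 1.23 to 1.36, by 0.55 ± 0.17, a call lost under DESeq2 and without wildtype replicate 3. The summed K2P level of 100 to 104 RPKM in wildtype and 75.6 to 78.4 in DISC1-Δ3 libraries followed the abundant members.

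Of 25 tested voltage-gated potassium (Kv) alpha subunits 8 rose and 3 fell, where 20.4% of all tested genes were higher and 19.5% lower. Kcnh1, of the ether-a-go-go family, had 0.15 to 0.23 RPKM in wildtype and 0.51 to 0.65 in DISC1-Δ3 libraries (1.52 ± 0.23 on the log2 scale, adjusted p = 3.74e-05, edgeR), and Kcnh2 rose by 0.49 ± 0.12. Silent subunits, which form no channel alone, gave rises of Kcng1 (1.06 ± 0.20) and Kcnf1 (0.58 ± 0.17) and a fall of Kcng4 (-0.64 ± 0.19), whose groups overlapped. The Kcng4 call was lost without wildtype replicate 1, and the Kcnf1 call was lost without wildtype replicate 2 or 3 or DISC1-Δ3 replicate 1.

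The Kv1 and Kv4 families, which carry the delayed-rectifier and A-type currents of OPCs, gave 1 rise and 2 falls among 7 tested genes. Over all tested genes 20.4% were higher and 19.5% lower. Kcna6, the most abundant Kv1 gene, read 6.80 to 7.58 RPKM in wildtype and 8.49 to 8.84 in DISC1-Δ3 libraries (0.19 ± 0.07, adjusted p = 0.0294, edgeR), a call lost under DESeq2 and without wildtype replicate 1 or 3 or DISC1-Δ3 replicate 1 or 2. Kcna2 fell by 0.34 (SE 0.10), with overlapping groups, and lost its call without wildtype replicate 1 and with library totals. Kcna5 and Kcna3, linked to OPC and microglial proliferation, had log2 fold changes of -0.03 ± 0.21 and 0.37 ± 0.37 at under 1 RPKM (adjusted p = 0.925 and 0.465), and Kcna4 was too low to test at 0.07 to 0.18 RPKM. In the A-type Kv4 family Kcnd1 read 10.76, 10.17 and 9.99 against 7.13, 7.24 and 7.77 RPKM and fell by 0.56 (SE 0.07, adjusted p = 5.67e-06), whereas Kcnd2 and Kcnd3 had log2 fold changes of 0.21 and 0.09 (adjusted p = 0.055 and 0.358).

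Among the accessory subunits of Kv channels 2 of 10 tested genes rose and 1 fell, or 5 and 0 with library totals. Over all tested genes 20.4% were higher and 19.5% lower, or 29.9% and 13.3% with library totals. Kcne4 rose by 0.83 ± 0.23, from 0.74 to 0.88 RPKM to 1.12 to 1.82. Kcnab1 (0.59 ± 0.23, adjusted p = 0.0493, edgeR) lay at the threshold and lost its call under DESeq2, median-of-ratios scaling and in 5 of 6 fits that left out a library, those without wildtype replicate 1, 2 or 3 or DISC1-Δ3 replicate 1 or 2. The abundant Kcne1l, at 56.4 to 62.2 RPKM in wildtype and 64.2 to 67.9 in DISC1-Δ3 libraries, gave 0.09 ± 0.06 on the log2 scale (adjusted p = 0.244). Kcnip3, a calcium-binding partner of Kv4 channels that also acts as a repressor, fell by 0.16 (SE 0.05), a call lost with library totals (-0.08, adjusted p = 0.17).

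The calcium- and sodium-activated alpha subunits gave 0 rises and 2 falls among 6 tested genes. Over all tested genes 20.4% were higher and 19.5% lower. Kcnn1 and the sodium-activated Kcnt1 were not called (adjusted p = 0.279 and 0.139, edgeR). The small-conductance genes Kcnn2 and Kcnn3 fell by 0.18 and 0.34 (adjusted p = 0.036 and 0.0169, edgeR), while Kcnn4, the intermediate-conductance channel of microglia, had 0.57 to 0.93 RPKM in wildtype and 0.89 to 1.46 in DISC1-Δ3 libraries (0.63 ± 0.28, adjusted p = 0.0806). With library totals 1 of the 6 genes rose and 0 fell, beside 29.9% and 13.3% of all tested genes. Both falls were also lost without DISC1-Δ3 replicate 2, that of Kcnn3 without wildtype replicate 2 and that of Kcnn2 without wildtype replicate 1 or 3 and under DESeq2. Kcnma1, the pore of the large-conductance BK channel, gave -0.13 ± 0.12 on the log2 scale (adjusted p = 0.386), and without DISC1-Δ3 replicate 3 it was lower (-0.27, adjusted p = 0.0382, edgeR). Its neuronal beta subunit Kcnmb4 read 16.95, 14.40 and 15.91 RPKM in wildtype and 24.52, 25.09 and 25.97 in DISC1-Δ3 libraries and rose by 0.60 ± 0.09 (adjusted p = 4.41e-05), and the smooth muscle beta subunit Kcnmb1 was under the filter at 0.12 to 0.31 and 0.34 to 0.38 RPKM.

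Rises and falls were spread unevenly over level. Tested channel genes were lower than the average gene, with a median RPKM over the 6 libraries of 2.19 against 8.84 for all tested genes. Of 37 channel genes with a mean under 2 RPKM, 16 rose and 4 fell, where 17.8% of all such genes were higher and 10.3% lower. Of 33 from 2 to 10 RPKM, 13 rose and 3 fell (all genes: 19.7% and 17.3%). Of 16 at 10 RPKM or more, 4 rose and 8 fell (21.9% and 24.7%), and the medians over the bands were 0.37, 0.19 and -0.15. The edges of these bands were set after the values were seen.

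**Figure D4:**
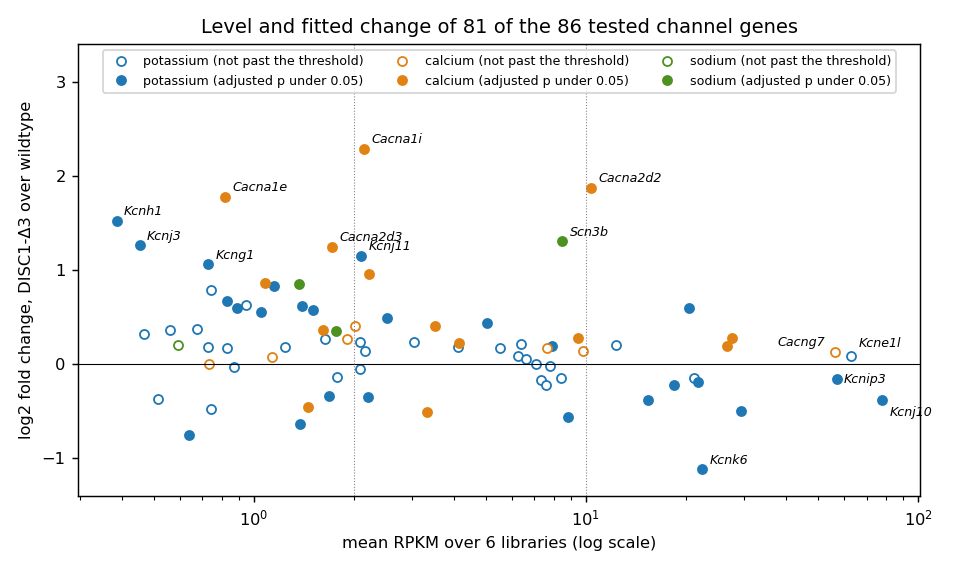
Mean RPKM over 6 libraries (x axis, log scale) and fitted log2 fold change (y axis) of 81 of the 86 tested channel genes, coloured by class and filled where the adjusted p was under 0.05, with dotted lines at 2 and 10 RPKM. Above 10 RPKM Cacna2d2 at 1.87 is the highest point and Kcnk6 at -1.12 the lowest.

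Genes that partner these channels were read from lists of their own. Of 13 tested partners of Kv, BK and ATP-sensitive channels 8 rose and 0 fell, beside 20.4% higher and 19.5% lower over all tested genes. Lrrc55, a gamma subunit of the BK channel, read 0.69, 0.49 and 0.51 RPKM in wildtype and 4.16, 3.26 and 3.57 in DISC1-Δ3 libraries (log2 fold change 2.99 ± 0.18, adjusted p = 4.73e-10, edgeR), and Abcc8, the sulfonylurea receptor that pairs with Kcnj11, read 0.24, 0.33 and 0.29 against 0.78, 0.87 and 0.82 (1.46 ± 0.22). Abcc9, the receptor that pairs with Kcnj8 in pericytes, rose by 0.67, and Dpp10 and Dpp6, partners of Kv4 channels, by 0.94 and 0.54. Of 11 sodium channel partners 4 rose and 2 fell, among them Fgf13 (0.48) and the nodal adhesion gene Nfasc (-0.60). Of 22 partners of calcium channels and AMPA receptors 11 rose and 2 fell, with Stac at 1.95 ± 0.35 and the channel inhibitor Rem1 at 1.55 ± 0.44. The Rem1 call was lost under DESeq2 and without wildtype replicate 2. Abcc8, Stac and Rem1 were under 0.5 RPKM in every wildtype library and could be tested only through the DISC1-Δ3 libraries.

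The channels described in OPCs gave 9 of 25 tested genes higher and 7 lower with a median of 0.14, where 20.4% of all tested genes were higher and 19.5% lower, and the 6 described in microglia gave 0 higher and 2 lower, Kcnk6 and Kcnj2. Of 5 described in vessel wall cells, 3 rose, among them Kcnj8 and Cacna1c, and 1 fell, Kcnj2. The summed pericyte and smooth muscle markers, at a mean of 204 RPKM in wildtype and 283 in DISC1-Δ3 libraries, were higher beside them, and their part was not tested.

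The 45 members under the filter had mean levels from 0.00333 to 0.55 RPKM, and 8 of them had at most 3 reads in every library: Kcna10, Kcne1, Kcne3, Kcnk16, Kcnk18, Scn9a, Scn10a and Scn11a. When the fit was repeated without a filter, 5 were called. Kcnk9, a K2P channel, had 2, 8 and 4 reads in wildtype and 22, 18 and 29 in DISC1-Δ3 libraries, and the silent subunit Kcns2 13, 7 and 14 against 32, 27 and 34. For both genes the groups did not overlap, with adjusted p-values of 0.00013 and 0.00139 (edgeR). Kcna1 and Scn3a were also higher and Kcnh7 lower, each with overlapping groups. These 5 were named because they are few, after their values were seen. Of the tested members 49 overlap another annotated gene, among them Cacna1d, Cacna2d2, Cacna2d3, Scn2b and Scn3b, and since the counting is not stated to use strand, reads of an antisense partner cannot be told apart from theirs. Reads divided between genes were present in 6 members, Cacna1d and Scn2b among those named above.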

How the data were processed

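RNA libraries were analysed from the labelled groups, 3 from wildtype and 3 from DISC1-Δ3 OPCs. The authors isolated cells by Pdgfrα immunopanning, enriched poly(A) RNA with oligo(dT) beads and sequenced single-end reads on a BGISEQ-500. The submitters' processing notes name Bowtie2 2.2.5 and mm10, and the counter, annotation and strand setting are not given in the sources used here. The authors deposited 1 table with, for each gene and library, an expected count, in which reads that match several genes are divided between them (90.2% of counts above 0 are whole), and an RPKM, the count divided by transcript length and library total, with no further scaling. Its columns of group averages were not used.

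Expected counts were rounded and fitted in edgeR 4.0.16 (R 4.3.3; glmQLFit and glmQLFTest, TMM scaling, genotype as the term, two-sided p adjusted by the Benjamini-Hochberg method over the 13792 genes with an RPKM of at least 0.5 in 3 of 6 libraries, threshold 0.05). The paper names DESeq2, used here as an alternative (1.42.0) along with limma 3.58.1 on log2(RPKM + 1) and log2(RPKM + 0.1), other filters and scalings, the replicate number as a block, and each library left out. RPKM are not TMM-scaled, so a ratio of RPKM differs from the fitted fold change. The length implied by reads, RPKM and library total also varied between libraries for some genes, among them Cacng7, which adds to this difference. With 3 against 3 libraries an exact permutation test cannot go below p = 0.1, so each gene's p rests on the spread shared across genes (common biological coefficient of variation 5.44%). On simulated counts for this comparison (13792 genes), edgeR recovered 97 of 100 genes changed by 1 on the log2 scale and 82 of 100 changed by 0.5. The SE was the size of the log2 fold change divided by the square root of the test's F, and includes spread between libraries. The reads carry no molecular identifiers and may repeat a molecule.

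The members, families and lists were chosen with earlier results of these data known. Genes were named when called without overlap and with a log2 change of 0.5 or more, when among the 5 potassium, 5 calcium or 3 sodium channel genes of highest mean RPKM, or when on a list of channels described in OPCs, microglia or vessel wall; other called genes were named to complete their families. Some genes that this rule names are not reported here, nor drawn in the figures, though counts include them. All 131 genes were found in the GRCm38.p6 gene table, and overlaps were read from GENCODE for the same assembly. Promoter sequences are from RefSeq (GRCm38.p6). Lists of calcium release, sodium pump, chloride, HCN, NALCN and TRP genes are given with the other observations. Python 3.11.15, pandas 2.3.3, scipy 1.17.1 and matplotlib 3.10.9 were used.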

Additional observations from a re-analysis of the deposited data

How the results depend on the processing

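More channel genes were higher than lower under every alternative run, and 20 of the 25 genes that changed by 0.5 or more on the log2 scale kept their call in each alternative that tested them. Kcnh1, Kcnj3, Kcng1 and Kcnj2 were not tested at an RPKM minimum of 1, nor Kcnh1 and Kcnj3 at a mean RPKM of 0.5. The calls lost were those of Kcnf1, Kcnab1, Kcnj4, Kcnj9 and Kcnk3, and 0 changed direction. With library totals in place of TMM, potassium genes lower went from 12 to 7, and the median log2 fold change was 0.29 over all channel genes, 0.27 for potassium and 0.36 for calcium, which follows from the higher median of all genes under that scaling (0.09). With limma on log2(RPKM + 1) 9 genes were lower, 7 of them potassium and 1 calcium, and the medians were 0.16 for potassium and 0.40 for sodium. With limma on log2(RPKM + 0.1) the numbers lower were the same 9, 7 and 1, and the medians were 0.28 over all, 0.23 for potassium and 0.35 for calcium. On log2(RPKM + 1) and log2(RPKM + 0.1), all tested genes had medians of 0.075 and 0.087. By these fits 28.9% and 28.7% of all tested genes were higher and 12.9% and 12.8% lower. On either limma scale the calls of Cacna1c, Scn8a, Cacnb2, Kcna2, Kcnk2, Kcnip3, Kcnn2 and Kcnn3 were lost. DESeq2 called 1 calcium gene lower. At an RPKM minimum of 1, which leaves fewer genes tested, the medians were 0.091 for potassium and 0.85 for sodium. The cause of the other shifts was not tested.

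With 1 library left out at a time, 24 to 35 channel genes were higher and 11 to 18 lower, with medians from 0.17 to 0.24. Over all tested genes these fits called 15.6% to 21.2% higher and 15.6% to 24.0% lower. Potassium genes gave 11 to 19 higher and 9 to 15 lower with medians from 0.12 to 0.17, and were 11 and 12 without wildtype replicate 3 and 14 and 14 without DISC1-Δ3 replicate 1. Calcium genes gave 10 to 13 higher and 1 to 2 lower, with medians from 0.22 to 0.30, and 1 lower without wildtype replicate 1 or 2. Sodium genes gave 3 to 4 higher and 1 lower, with medians from 0.51 to 0.69. DISC1-Δ3 replicate 3 stood apart on a second component (8.13% of the variance), and without it 35 genes were higher and 18 lower. That fit called 21.2% of all tested genes higher and 24.0% lower.

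The labels number replicates 1 to 3 in both groups. Deviations of same-numbered libraries from their group means correlated at 0.069, 0.023 and -0.056, and those of differently numbered libraries at -0.083 to 0.063. No effect shared by number was visible, but these values cannot show that the samples were unpaired. With the replicate number as a block 34 channel genes were higher and 15 lower, beside 20.1% and 19.3% of all tested genes. Kcnab1 and Kcnj8 lost their call and Kcnab2, Kcnc1 and Kcnd2 gained one. Depth limits the 45 members under the filter, where a change of a few reads could not be detected.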

Other observations

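Other cation channels and transporters moved beside the potassium, calcium and sodium channels. Of 17 tested HCN, CNG, NALCN and TRP genes 6 rose and 6 fell, where 20.4% of all tested genes were higher and 19.5% lower. Hcn4, the pacemaker channel of the sinoatrial node, read 0.42, 0.45 and 0.37 RPKM in wildtype and 2.07, 2.15 and 2.40 in DISC1-Δ3 libraries (log2 fold change 2.33 ± 0.18, adjusted p = 1.13e-08, edgeR), while Hcn2 and Hcn3 rose by 0.59 and 0.53 and the sodium leak channel gene Nalcn by 0.55. Trpm1 rose by 3.03 ± 0.40 from 0.08 to 0.12 RPKM to 0.56 to 1.40. Hcn4 and Trpm1 were under 0.5 RPKM in every wildtype library and could be tested only through the DISC1-Δ3 libraries. Trpm2, an oxidant-gated channel of microglia, read 8.42, 8.23 and 7.35 against 2.86, 3.67 and 2.87 RPKM and fell by 1.53 (SE 0.08, adjusted p = 8.07e-11). The 16 microglia markers had log2 fold changes from -0.69 to -0.23, and the part of microglial RNA in the Trpm2 value was not tested. Trpv4 fell by 1.02.

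Calcium release and store-operated entry gave 6 of 22 tested genes higher and 9 lower, with Itpr1, the neuronal inositol trisphosphate receptor, at 0.72 and Itpr3 at -0.69. Of 16 tested sodium pump and cation-chloride cotransport genes 6 rose and 7 fell. Fxyd6, a pump regulator, rose by 1.20, and Slc12a5, the neuronal chloride extruder, rose by 0.80. Chloride channel genes gave 5 of 18 higher and 6 lower, from Lrrc8a at -0.41 to Ano1 at 0.69. Beside these lists, 20.4% of all tested genes were higher and 19.5% lower.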
